A study of Homo sapiens with 14 samples.

Results

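In T47D cells, a breast cancer line with oestrogen and progesterone receptors, 1511 regions near the termini of protein-coding genes were listed for both the progesterone receptor (PR) and POLR3A, with and without hormone. They were selected on measured values: each is a region of the PR list under progesterone (P4) on chromosomes 1 to 22 or X that overlaps, by at least 1 bp, a region of the PR vehicle, POLR3A vehicle and POLR3A P4 lists. Each also lies within 1 kb of a terminus, meaning the start or the end position of a protein-coding gene in the RefSeq table of GRCh38. The PR P4 list held 111515 regions on these chromosomes, and 6218 of them (5.58%) met the overlap rule. Of 14156 PR P4 regions within 1 kb of a terminus, 1511 (10.7%) did so, and of 97359 regions farther away, 4707 (4.83%) did so. The 1511 regions are called the four-list terminal regions here, and each is named after the coding gene with the nearest terminus. Under gene lists and counts per gene, the name is that of the gene counted, within 1 kb, even where another terminus is nearer. The MAF1 region, for example, lies 931 bp from MAF1 and 243 bp from SHARPIN. Promoter windows are named after their own gene. None of these names says which gene a region acts on. Sites of PR and POLR3A were mapped by chromatin immunoprecipitation sequencing (ChIP-seq) after 1 h of ethanol, the vehicle, or P4. All cells were T47D grown in serum-containing medium with insulin, and no genetic change is labelled. Each antibody had 3 replicate libraries per treatment, each treatment had 1 pooled input, and 14 libraries were labelled in all. The deposited data were 1 list of regions for each antibody and treatment, so there were no values per replicate and no difference here has a replicate check or a test.

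PR is a nuclear receptor that binds DNA after progesterone binds to it and recruits coregulators to enhancers and promoters. Its binding site is an inverted repeat of a short hexamer, and it often works through other DNA-bound factors. POLR3A is the largest subunit of RNA polymerase III (Pol III), the enzyme that makes transfer RNAs, 5S ribosomal RNA, U6 and 7SK. Protein-coding genes are transcribed by RNA polymerase II, so a coding gene start is not a usual Pol III template, although tRNA genes can lie close to one. The question was therefore what the regions at coding gene termini look like in each list, and how many of them sit beside a Pol III gene.

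Promoter sequences at some summits are shown as examples, in 3 sets that are not classes of region. The windows below were read from RefSeq promoters of GRCh38.p14, which run from 250 bases before to 50 after each gene start, and show up to 60 bases on each side of a summit, the highest point of a region, on the strand of the gene and ending before the start. The first set holds PR P4 summits: MYNN (chr3:169773196-169773316, plus strand) for its palindromic PR element in capitals, and ACOT6 (chr14:73610738-73610858, plus strand) and NACA (chr12:56725430-56725549, minus strand), which are among the 10 four-list terminal regions with the highest PR P4 values. No motif searched was found in the ACOT6 window, and the capitals in NACA mark a GC box.
MYNN: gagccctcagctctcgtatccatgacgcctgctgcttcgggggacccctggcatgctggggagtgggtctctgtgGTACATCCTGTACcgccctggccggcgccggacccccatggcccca
ACOT6: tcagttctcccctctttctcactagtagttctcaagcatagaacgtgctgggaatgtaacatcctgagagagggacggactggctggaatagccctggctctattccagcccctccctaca
NACA: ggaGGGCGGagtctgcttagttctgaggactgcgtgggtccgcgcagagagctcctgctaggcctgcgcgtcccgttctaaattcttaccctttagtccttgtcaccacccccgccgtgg
The second set holds PR P4 summits with the ETS motif CCGGAAG, in capitals on either strand, which was more frequent in these promoters than in all promoters: TTC14 (chr3:180602090-180602162, plus strand), SLC15A4 (chr12:128823980-128824100, minus strand) and TRMT112 (chr11:64317586-64317706, minus strand).
TTC14: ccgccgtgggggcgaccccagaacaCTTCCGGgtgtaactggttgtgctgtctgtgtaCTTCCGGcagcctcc
SLC15A4: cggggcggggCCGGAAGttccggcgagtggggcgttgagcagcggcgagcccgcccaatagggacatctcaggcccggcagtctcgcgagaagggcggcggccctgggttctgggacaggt
TRMT112: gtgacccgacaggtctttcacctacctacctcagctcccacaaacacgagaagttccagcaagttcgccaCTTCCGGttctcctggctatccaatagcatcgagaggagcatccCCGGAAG
The last set holds POLR3A vehicle summits: POLR3E (chr16:22297159-22297248, plus strand), whose upstream window holds part of the tRNA gene TRL-AAG2-4, with its B box in capitals, HNRNPA2B1 (chr7:26200823-26200943, minus strand), where the capitals mark a CCAAT box, and ACP2 (chr11:47248840-47248960, minus strand), where they mark YY1, ETS and GC box motifs in that order.
POLR3E: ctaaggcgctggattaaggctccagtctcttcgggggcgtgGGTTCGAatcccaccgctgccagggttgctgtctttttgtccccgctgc
HNRNPA2B1: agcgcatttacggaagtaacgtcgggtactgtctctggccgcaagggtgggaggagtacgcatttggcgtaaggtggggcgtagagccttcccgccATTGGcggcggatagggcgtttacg
ACP2: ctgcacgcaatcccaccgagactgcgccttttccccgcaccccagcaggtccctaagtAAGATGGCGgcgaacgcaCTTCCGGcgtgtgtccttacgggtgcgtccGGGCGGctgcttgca
The PR P4 −log10 q-values were 43.3 at MYNN and 45.9 at TRMT112, and 442.5 at ACOT6 and 417.3 at NACA. These windows were chosen after the values were seen.

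Starts outnumbered ends. The nearest terminus was a gene start for 1039 regions and a gene end for 153, and the strand of the gene was not in the promoter table for the other 319. Among the 1192 regions of known strand, 87.2% (95% Wilson interval 85.2 to 88.9) lay at starts, against 77.1% (76.3 to 77.9) of 10202 terminal PR P4 regions that were not in all lists. Intervals of shares here cover counting error over regions, genes or promoters only. The region covered the terminus itself in 652 of 1511 cases (43.2%), and the median distance was 70 bp. Starts of coding genes on both strands lay within 1 kb of 178 regions (11.8%), against 7.58% of the 12645 other terminal regions. Just inside the limit, at 999 bp, lay a region near GMEB2, a glucocorticoid-modulatory element binding protein, and one near MCMDC2. Their PR P4 −log10 q-values were 105.2 and 20.9. Just outside it, regions near SPI1 at 1003 bp and THBS3 at 1004 bp had values of 4.10 and 6.19.

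Terminal and distant regions differed most in their overlap with POLR3A. Of the terminal PR P4 regions, 30.9% overlapped a POLR3A vehicle region and 38.1% a POLR3A P4 region, against 11.1% and 18.4% of the distant ones. For PR vehicle the shares were 28.9% and 25.4%. The order of the shares in all lists depended on the setting. With a −log10 q of at least 5 in every list, 200 terminal regions were left, 3.02% (2.64 to 3.46) of their kind against 3.81% (3.64 to 3.99) of the distant ones, so the order turned around. At 10 or more it was 0.651% against 3.42%, with 20 terminal regions left, and with a reciprocal overlap of 50% it was 1.65% against 2.03%. Width moved with the result: terminal PR P4 regions had a median of 343 bp and distant ones 282 bp. Split into 4 width classes of equal size, the narrowest class had 1.28% of terminal and 1.46% of distant regions in all lists, and the widest 23.1% (22 to 24.3) and 12.8% (12.4 to 13.3). The part of width in the gap was not tested.

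By median rank, four-list terminal regions stood above the middle of the PR P4 list and both POLR3A lists, and below the middle of PR vehicle. The −log10 q-value and the fold enrichment are the authors' values, and they rank regions within 1 list only and measure no change between lists. The median −log10 q of the 1511 regions was 4.74 in PR vehicle, 8.65 in PR P4, 4.75 in POLR3A vehicle and 4.70 in POLR3A P4. Over all regions of those lists the medians were 5.75, 4.87, 3.53 and 3.22. As a percentile, the share of a list's regions with a lower −log10 q, the medians were 41.4, 69.3, 68.9 and 76.2. In PR vehicle the four-list terminal regions thus sat below the middle of their list. The distant four-list regions ranked higher by −log10 q in all 4 lists, with medians of 10.4, 15.3, 6.07 and 6.40. Ranked by fold, the order turned around in 3 lists: the median percentile of terminal and distant regions was 67.4 and 60.8 in PR P4, 67.1 and 53.3 in POLR3A vehicle, and 73.8 and 63.5 in POLR3A P4. In PR vehicle it was 41.8 and 42.6. Terminal regions at gene ends ranked above those at starts in PR P4, with medians of 13.7 and 8.16, and in PR vehicle, with 6.36 and 4.65. In the POLR3A lists, ends and starts were closer, at 4.94 and 4.75 under vehicle and 4.92 and 4.73 under P4. Median width in the PR P4 list was 718 bp, against 544 bp for distant four-list regions and 288 bp for the whole list.

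**Figure D1:**
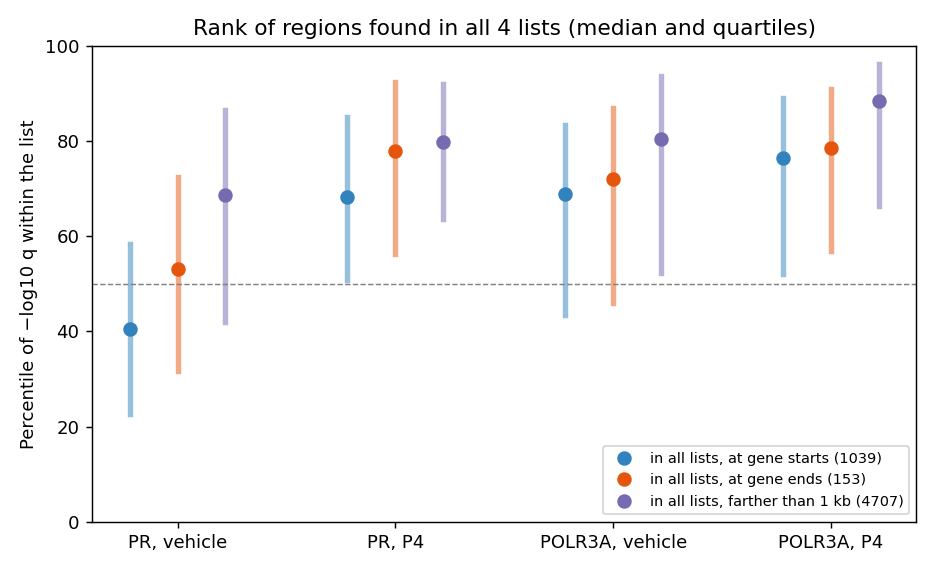
Percentile of −log10 q within each list (vertical axis, 0 to 100) for four-list regions nearest to gene starts (1039), to gene ends (153) and farther than 1 kb (4707), with dots for medians, bars for quartiles and a dashed line at the middle of each list. Terminal regions lie lowest in the PR vehicle list, where the median at starts is 40.4, and by −log10 q the distant regions lie above them in every list, an order that ranking by fold turns around in 3 of the 4.

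At the four-list terminal regions, ranks for one antibody said little of ranks for the other. As a description over 1511 regions, which share libraries and are not independent, Spearman's rho between PR vehicle and PR P4 was 0.632, and between POLR3A vehicle and P4 it was 0.355. Between PR P4 and POLR3A vehicle it was 0.012, and between PR vehicle and POLR3A vehicle 0.070. With POLR3A P4 it was 0.080 for PR P4 and 0.113 for PR vehicle. At the distant four-list regions these 4 values were 0.048, 0.232, 0.171 and 0.311, in the same order. A percentile above 95 was reached by 179 regions in PR P4, by 80 in POLR3A vehicle and by 9 in both, while 1261 of 1511 (83.5%) reached it in neither. Only 4 regions exceeded it in all lists: WDR45B, PLEKHG2, FKBP5 and TRIM55. At PLEKHG2 the −log10 q was 177.8 in PR vehicle, 274.2 in PR P4, 539.7 in POLR3A vehicle and 440.6 in POLR3A P4, and the tRNA gene TRI-TAT1-1 lies there. At TRIM55, beside 3 tRNA genes, the same values were 340.9, 390.2, 436.6 and 445.1. Under vehicle and P4, PR and POLR3A summits were 579 and 595 bp apart at PLEKHG2 and 1296 and 1260 bp at TRIM55. They were 38 and 16 bp apart at WDR45B and 23 and 4 bp at FKBP5. WDR45B, a PROPPIN family gene, had 370.4, 376.6, 20.4 and 12.3, with no Pol III gene of the table within 100 bp.

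**Figure D2:**
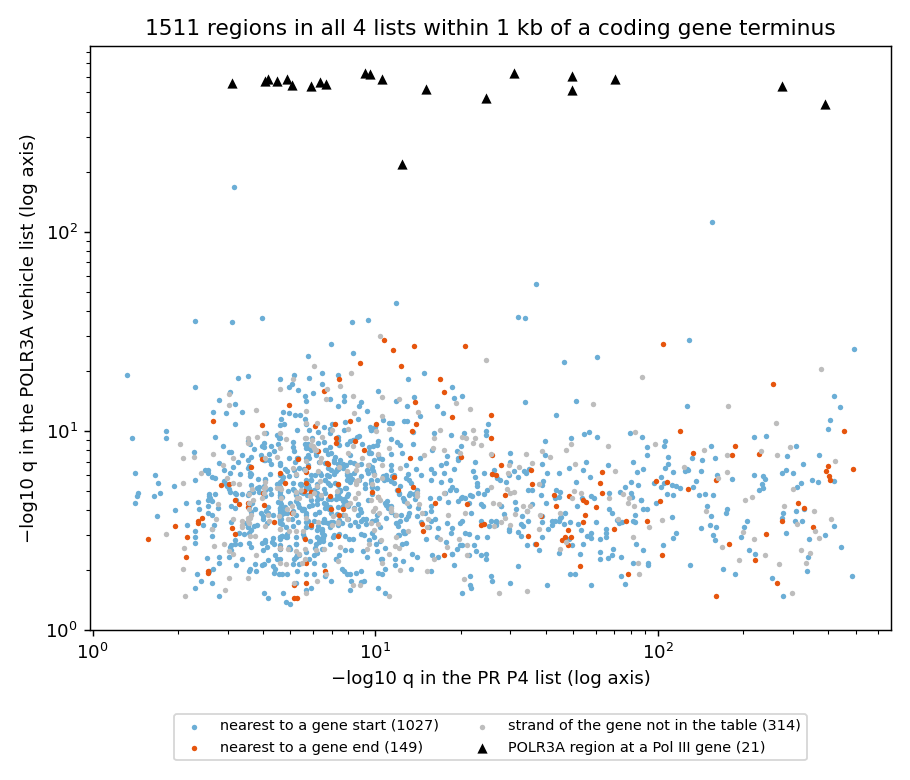
Each of the 1511 regions by −log10 q in the PR P4 list (horizontal, log axis) and in the POLR3A vehicle list (vertical, log axis), coloured by the kind of nearest terminus, with triangles for the 21 regions whose POLR3A region is at a Pol III gene. The triangles form a band above 200 in POLR3A at PR values from 3.10 to 390.2, and the other regions spread over PR at POLR3A values up to 167.

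The 10 four-list terminal regions with the highest PR P4 values were led by FKBP5, which encodes a co-chaperone of steroid receptors and is a known progestin target. Its region covers the gene start (chr6:35725108-35728692) and had −log10 q-values of 489.4 in PR vehicle, 492.9 in PR P4, 25.7 in POLR3A vehicle and 13.5 in POLR3A P4. ABCC11, an ABC transporter gene, had 390.8, 490.1, 6.41 and 7.09 in the same order, at its end. BFAR, an apoptosis regulator, had 341.6, 482.6, 1.87 and 7.87. BANP, which encodes a DNA-binding nuclear matrix protein, had 436.7, 453.5, 10.0 and 20.9 at its end. All 4 were high in PR vehicle as well. Their percentiles, in the same order, were 97.2, 82.2, 7.09 and 91.2 in POLR3A vehicle and 96.4, 90.5, 92.1 and 97.9 in POLR3A P4. ACOT6, an acyl-CoA thioesterase gene, had 355.4, 442.5, 2.59 and 6.10, and ZNF341, a zinc finger gene, had 404.7, 440.0, 13.1 and 13.2. The remaining 4 were SLC29A2, a nucleoside transporter gene, VPS9D1, TAF5L, which encodes a subunit of a histone acetyltransferase complex, and NACA, the alpha subunit of the nascent polypeptide-associated complex. Their PR P4 values lay between 417.3 and 420.7, their PR vehicle values between 167.8 and 364.4, and their POLR3A vehicle values between 3.34 and 14.9. FKBP5 alone of the 10 had a POLR3A vehicle percentile above 95. In POLR3A P4, BANP, ZNF341 and SLC29A2 exceeded it too, at 97.9, 96.3 and 96.6. At the other extreme, the lowest PR vehicle values were 1.305 at TARS2, the mitochondrial threonyl-tRNA synthetase gene, 1.33 at COA4 and 1.39 at CCDC142, with PR P4 values of 5.36, 8.96 and 3.96.

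The four-list terminal regions highest in POLR3A vehicle lay at Pol III genes. Counting a Pol III gene or the 100 bp beside it, the POLR3A vehicle region was at such a gene for 21 of 1511 regions (1.39%), with 31 tRNA genes and RN7SK, which encodes 7SK RNA, among the 32 genes. By the PR P4 region it was 17 regions (1.13%), with 22 genes. The same shares of other PR P4 regions were not counted, so these cannot be called high or low. All of the 20 four-list terminal regions highest in POLR3A vehicle were among the 21, and 1 of the 20 highest in PR P4. The median −log10 q of the 21 was 564.3 in POLR3A vehicle and 528.3 in POLR3A P4, with median folds of 84.7 and 69.5. In the PR lists their medians were 3.94 under vehicle and 9.55 under P4, against 4.75 and 8.64 for the other 1490 regions. So these regions stood at the top of the POLR3A lists and near the middle of the four-list terminal regions for PR. Several rest on the same POLR3A region: 3 of them, 1 near ALOXE3 and 2 near HES7, overlap 1 POLR3A region with 4 tRNA genes on chromosome 17.

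KNL1, a kinetochore gene with TRS-GCT4-2 beside it (chr15:40593825-40593906), had the highest POLR3A vehicle value, 629.5, with 564.1 in POLR3A P4, 2.60 in PR vehicle and 9.17 in PR P4. POLR3E, itself a Pol III subunit gene, had 625.0 and 445.1 for POLR3A, and 4.51 and 30.9 for PR. Its POLR3A vehicle summit lay 7.5 bp from the middle of TRL-AAG2-4 (chr16:22297140-22297221). The POLR3A P4 summit lay 1346 bp away, the PR vehicle summit 987.5 bp and the PR P4 summit 1252 bp. Its PR P4 region did not reach that tRNA gene. GSTA4, a glutathione transferase gene beside RN7SK (chr6:52995620-52995951), had 616.5 and 586.3 for POLR3A and 4.15 and 9.55 for PR. POLG, the mitochondrial DNA polymerase gene beside TRR-TCG1-1 (chr15:89335073-89335145), had 606.8 and 568.4, and 7.92 and 49.6. AGBL5 lies beside TRA-AGC8-1 (chr2:27051214-27051286) and TRY-GTA2-1 (chr2:27050782-27050870) and had 586.6 and 554.3, and 3.59 and 4.15. The POLR3A vehicle percentiles of these 5 regions were 99.95 or higher, while their PR P4 percentiles ran from 42.4 at AGBL5 to 91.9 at POLG.

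Some strong POLR3A regions had no Pol III gene of the table beside them. These were picked after their values were seen. The highest was between CBX3, a heterochromatin protein gene, and HNRNPA2B1, an RNA-binding protein gene, with 167.0 in POLR3A vehicle, 163.1 in POLR3A P4, and 3.08 and 3.15 in PR. WDR74, where the Pol II small nuclear RNA gene RNU2-2 lies, had 111.1 and 113.8 for POLR3A and 48.8 and 155.3 for PR. Other RNA polymerase II small nuclear RNA genes lay at the POLR3A regions near SIRT4 (RNU4-2), TAF12 (RNU11) and POLDIP3 (RNU12), with POLR3A vehicle values of 37.2, 36.9 and 35.7 and POLR3A P4 values of 29.4, 41.9 and 30.3. LEMD2, a nuclear envelope gene, had 54.5 in POLR3A vehicle and 1.44 in POLR3A P4, so its 2 POLR3A regions ranked at percentiles 98.6 and 1.00. PR and POLR3A summits there were 905 bp apart under vehicle and 36 bp under P4. Whether the 2 POLR3A regions mark 1 site was not tested. CCDC174 had 43.6 in POLR3A vehicle and 44.5 in POLR3A P4.

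PR and POLR3A summits lay farther apart than at the distant four-list regions. The median distance between the PR and POLR3A summits was 208 bp under vehicle and 179 bp under P4, against 63.0 bp and 56.0 bp at the distant four-list regions. The P4 distances are bounded by the overlap itself and the widths of the PR P4 and POLR3A P4 regions. The vehicle regions of PR and POLR3A each had to overlap the PR P4 region, but not each other. Their summit distances are therefore bounded less tightly, since the width of the PR P4 region adds to the bound. A distance of at most 50 bp was found at 18.1% (16.2 to 20.1) of the four-list terminal regions under vehicle and at 21.5% (19.5 to 23.7) under P4, and at 45.4% and 48.2% of the distant ones. The 179 regions with a PR P4 percentile above 95 kept 1 PR position, with a median of 12.0 bp between PR vehicle and PR P4 summits, while their POLR3A summits under vehicle and P4 were 183 bp apart. The 21 regions at Pol III genes showed the reverse, with 12.0 bp between the POLR3A summits and 101 bp between the PR summits. Between PR and POLR3A, the median summit distance of the 179 regions was 275 bp under vehicle and 216 bp under P4. These medians were above those of all four-list terminal regions, although 19.0% and 27.9% of the 179 were at most 50 bp apart. Only the 10 regions with the highest PR P4 values are described next, and they do not stand for the 179. Under P4, their PR and POLR3A summits were at most 50 bp apart at 9 of 10. These distances ran from 3 bp at TAF5L to 45 bp at ZNF341, with NACA at 328 bp. Under vehicle they were that close at 5 of 10 (FKBP5, BANP, ZNF341, SLC29A2 and TAF5L), and 1170 bp apart at VPS9D1.

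At the 1039 regions nearest to a gene start, POLR3A vehicle summits lay closest to it. The median distance without sign was 275 bp for POLR3A vehicle, 375 bp for POLR3A P4, 400 bp for PR P4 and 444 bp for PR vehicle. Within 100 bp of the start lay 23.2% of the summits for POLR3A vehicle, 18% for POLR3A P4, 12.7% for PR P4 and 9.63% for PR vehicle. The first 100 bp downstream held 158 POLR3A vehicle and 120 POLR3A P4 summits, more than any other bin of those lists. For PR, the fullest bin was 100 to 200 bp downstream, with 86 summits in each list. About as many summits lay upstream as downstream, 51.5% upstream in PR P4 and 49.7% in POLR3A vehicle.

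**Figure D3:**
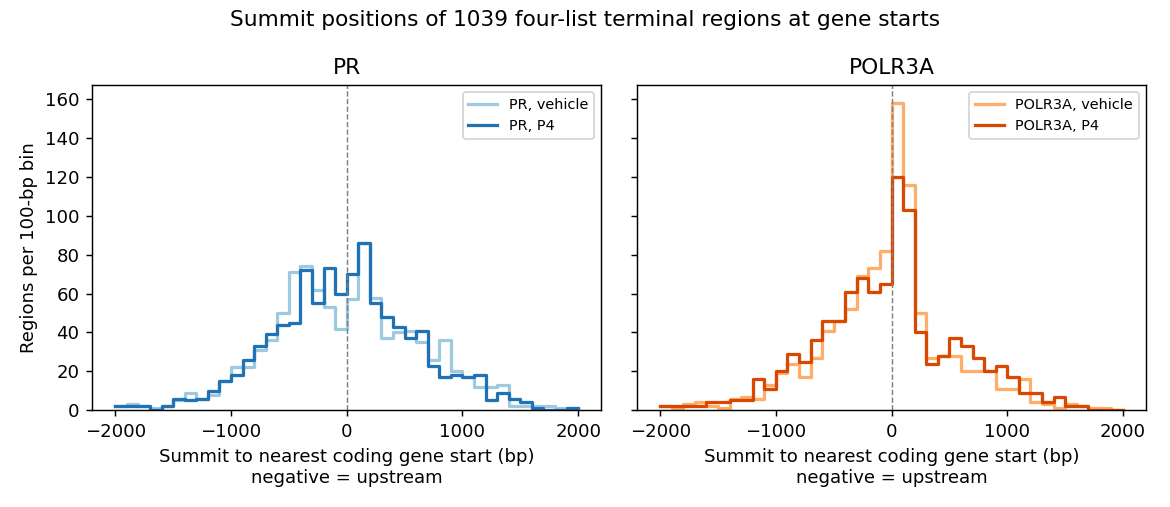
Number of four-list terminal regions (vertical axis) by distance of the summit from the nearest coding gene start in 100-bp bins (horizontal axis, bp, negative upstream), for PR at left and POLR3A at right, over 1039 regions at starts. The POLR3A lines peak just downstream of the start at 158 and 120 regions, while the PR lines are broad with up to 86 per bin; 24 or 25 summits per list lie beyond the axis.

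Promoter windows of 300 bases, from 250 before to 50 after a start, held the ETS motif more often than promoters at large. ETS proteins are a family of factors that bind many housekeeping promoters. The motif was searched as CCGGAAG on both strands. It was in 12.8% (12.3 to 13.2) of 22012 windows of all coding promoters, in 23.1% (21.2 to 25.2) of the 1621 windows of genes with a four-list terminal region at the start, and in 28.1% (25.2 to 31.2) of the 882 windows that such a region overlaps. Windows that hold the PR P4 summit had it in 30.5% (25 to 36.5) of 243 cases, and windows that hold the PR P4 summit of a terminal region not in all lists in 20.6% (18.5 to 22.8) of 1385. The YY1 motif AAGATGGCG was in 5.56% (4.23 to 7.27) of the overlapped windows and 2.42% (2.22 to 2.63) of all windows, and the NRF1 motif GCGCATGCG in 4.88% and 2.34%. The TATA box TATAAA was in 5.33% and 9.49%, the AP-1 motif TGANTCA in 3.52% and 6.16%, and the GATA motif AGATAA in 4.42% and 7.90%. Several of these gaps were small between the 243 and the 1385 windows with a PR P4 summit. In that order, TATA was in 6.17% and 6.50%, AP-1 in 4.94% and 5.13%, and NRF1 in 4.12% and 3.61%. YY1 was in 4.53% and 3.39%, and GATA in 4.12% and 7.08%.

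Palindromic receptor elements were rare in the same windows. Only 243 windows held a PR P4 summit of a four-list terminal region, so most of the 1511 PR P4 summits were not searched. The palindrome searched, GNACA, any 3 bases, then TGTNC, was in 0.567% (0.242 to 1.32) of the 882 overlapped windows. It was in 0.823% (0.226 to 2.95) of the 243 windows and 0.291% (0.228 to 0.371) of all windows. The PR hexamer TGTTCT was in 10.8% (8.89 to 13.0), 14.0% (10.2 to 18.9) and 11.8% (11.3 to 12.2), in the same order. Of the 1385 windows with the PR P4 summit of a terminal region not in all lists, 0.794% held the palindrome and 13.3% the hexamer. The oestrogen receptor palindrome GGTCA, any 3 bases, then TGACC was in none of the overlapped windows and 0.0363% of all windows. The forkhead motif TGTTTAC was in 2.15% and 2.86%, and the CRE motif TGACGTCA in 3.97% and 2.25%. The Pol III internal promoter motifs, the B box GGTTCGA and the A box TGGCNNAGT, were in 1.02% and 3.06% of overlapped windows, against 0.950% and 3.21% of all windows. The remaining 4 were the CCAAT box CCAAT (37.4% against 34.7%), the GC box GGGCGG (63.7% against 56.3%), the CTCF core CCCCCTNG (6.46% against 8.52%) and the ZNF143 core CCCANNATG (4.42% against 4.53%). Base composition moved with these shares: the ratio of observed to expected CpG had a median of 0.845 in overlapped windows and 0.737 in all windows, at a GC content of 62.0% and 62.3%. The part of CpG content in the motif shares was not tested. A match is only a match of letters, and a window without one may still be bound.

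**Figure D4:**
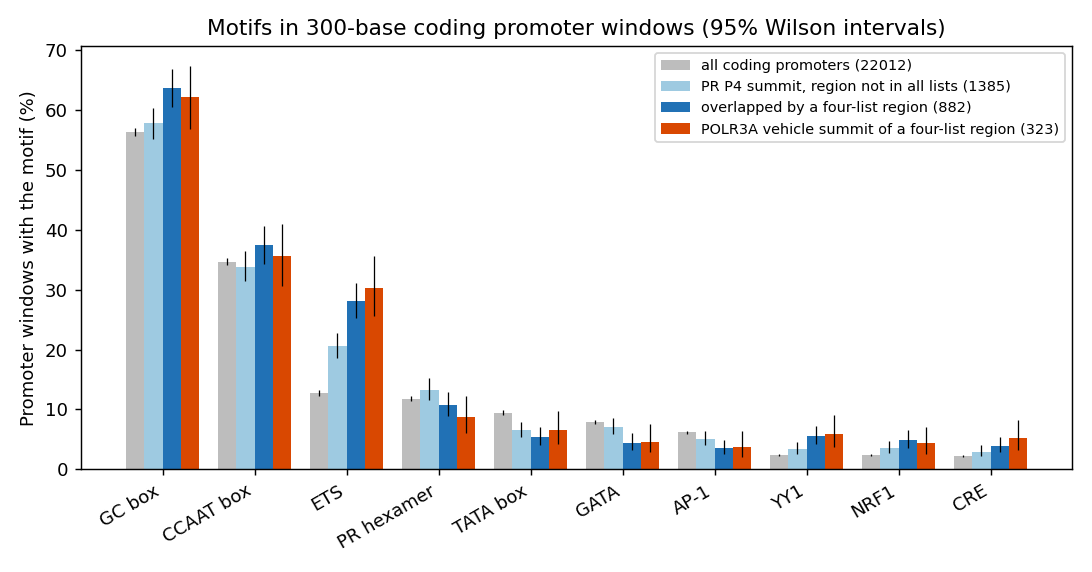
Share of 300-base promoter windows (vertical axis, percent, bars from 0) with each motif, for all coding promoters (22012), promoters with the PR P4 summit of a terminal region not in all lists (1385), promoters overlapped by a four-list terminal region (882) and promoters with its POLR3A vehicle summit (323). Lines are 95% Wilson intervals; ETS stands at 28.1% and 30.3% in the last 2 sets against 12.8% of all promoters.

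By gene, 1668 of 19821 protein-coding genes (8.42%) had a four-list terminal region within 1 kb of a terminus, and the fixed gene lists are read against that share. Coding genes with a region of a single list near a terminus were far more: 23.9% for PR vehicle, 50.2% for PR P4, 30.8% for POLR3A vehicle and 33.6% for POLR3A P4. Genes of the protein-making machinery stood above the share of all genes. Cytosolic ribosomal protein genes had one in 23 of 79 cases (29.1%, 20.2 to 39.9), and 62 of the 79 had a POLR3A vehicle region near a terminus. RPS29 had −log10 q-values of 18 in PR vehicle, 71.4 in PR P4, 3.56 in POLR3A vehicle and 6.76 in POLR3A P4, and RPL13 had 7.98, 60.4, 4.12 and 4.47. RPS2 and RPS14 had PR P4 values of 55.6 and 45.2. Cytosolic aminoacyl-tRNA synthetase genes, whose enzymes charge tRNAs, had one in 7 of 23 cases (30.4%, 15.6 to 50.9). TARS1 had 6.57, 18.9, 2.12 and 2.44 in the 4 lists, LARS1 had 3.89, 17.5, 7.97 and 7.6, and WARS1 and the scaffold gene AIMP1 had PR P4 values of 10.6 and 8.14.

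Replication-dependent histone genes had the largest share of the 13 lists, 25 of 53 (47.2%, 34.4 to 60.3), from 23 regions, since these short genes lie close together. H1-3 had 68.9 in PR vehicle, 160.2 in PR P4, 5.63 in POLR3A vehicle and 4.58 in POLR3A P4, and H2AC18 had 18.2, 104.4, 27.2 and 26.1. H3C3 and H2BC5 had PR P4 values of 48.9 and 29.8. H2AC18 has a nearly identical copy, H2AC19, so reads could be shared between them and their values are uncertain. Several histone genes that are not on the list of 53 also had a four-list terminal region, so they are not in its count. Among them were H2AC19, H4C14, H4C15, H2BC18, H3C13 and H2AC21. Chaperone genes of receptor complexes, with 6 of 21 (28.6%, 13.8 to 50), included FKBP5, and FKBP4, its relative, had 37.1, 103.1, 3.58 and 6.11. HSPA4 and HSPA8, heat shock protein genes, had PR P4 values of 34.2 and 25.8.

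The luminal breast list, which holds transcription factor and keratin genes, had 7 of 20 genes (35.0%, 18.1 to 56.7). These were GRHL2, SPDEF, ELF3 and GATA3, which encode transcription factors, and 3 keratin genes, of which KRT8 and KRT18 share 1 region. GRHL2, an epithelial factor, had 61.0, 87.5, 18.5 and 5.30 in PR vehicle, PR P4, POLR3A vehicle and POLR3A P4. SPDEF had 11.4, 35.7, 5.38 and 4.31, KRT19, a luminal keratin gene, had 9.21, 21.5, 12.9 and 4.90, and ELF3 had 9.92, 8.60, 9.32 and 7.42. Nuclear receptor genes had one in 6 of 37 cases (16.2%, 7.65 to 31.1), an interval that includes 8.42%. VDR, the vitamin D receptor gene, had 71.7, 297.9, 1.54 and 8.83, so its PR value ranked at percentile 99.3 and its POLR3A vehicle value at 2.67. NR1H3, a liver X receptor gene whose region also covers the ACP2 promoter shown above, had 6.95, 46.4, 22.2 and 10.7. RXRB and ESRRA had PR P4 values of 65.5 and 45.9, and the ESRRA region is the one that covers the TRMT112 promoter.

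Pol III machinery genes had one in 5 of 29 cases (17.2%, 7.6 to 34.6), again with 8.42% inside the interval. MAF1, the Pol III repressor gene, had 11.4, 47.4, 7.98 and 11.7 in the 4 lists, GTF3C2, a TFIIIC subunit gene, had 15.8, 29.6, 6.01 and 2.79, and POLR3B had 5.85, 17.8, 6.88 and 8.66. The intervals of 6 further lists also included 8.42%. PR target genes had 3 of 25 (12.0%, 4.17 to 30): FKBP5, TIPARP, a mono-ADP-ribosyltransferase gene with 168.2, 326.2, 6.83 and 5.72, and NFKBIA, the gene for an NF-kappa-B inhibitor, with 6.46, 25.9, 6.03 and 3.34. Growth factor receptors had 2 of 14 (ERBB3 and FGFR1), cell cycle genes 2 of 21 (E2F1 and CDK2), coregulators 2 of 24 (KMT2D and NCOA3), AP-1 genes 1 of 12 (MAFK) and core clock genes 1 of 22 (BHLHE40). MAFK and BHLHE40 had PR P4 values of 97.8 and 70, and the highest region of each of the other 6 genes lay between 5.43 and 11.4.

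**Figure D5:**
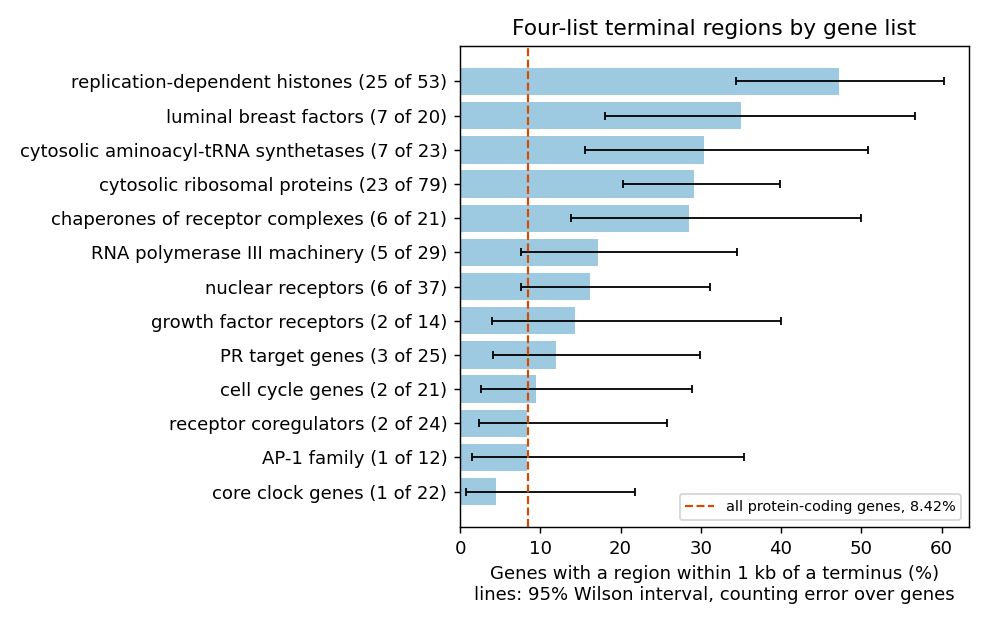
Share of genes with a four-list terminal region within 1 kb of a start or end position (horizontal axis, percent, bars from 0) for 13 gene lists, with 95% Wilson intervals over genes and a dashed line at 8.42% of all coding genes. Histone genes reach 47.2% and ribosomal protein genes 29.1%, while the line crosses the intervals of 8 lists from RNA polymerase III machinery to core clock genes.

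The number of regions per gene was small. Of 1668 genes, 197 had more than 1, and 20 had 3 or more. LOC101929601 had 4, with PR P4 folds of only 1.78 to 2.04 and POLR3A vehicle folds of 2.54 to 2.83, at POLR3A vehicle percentiles of 91.3 to 96.2. ANAPC2, a subunit gene of the anaphase-promoting complex, had 3, and 1 of them reached 119.1 in PR P4 while the others stood at 3.96 and 5.36. C16orf74 had 3, with 254.3 at its end and 4.96 and 19.6 at its start. ATP6V1G1, a proton pump subunit gene, and COQ4, a coenzyme Q gene, had 3 modest ones each, with PR P4 values up to 6.54 and 9.23.

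The regions were unevenly spread over chromosomes. Of the PR P4 regions near a terminus, the share in all lists ran from 0.943% on chromosome 18, with 1 of 106, and 2.95% on chromosome 22, 3.14% on X and 3.58% on 2, to 15.9% on 20, 16.1% on 11 and 17.3% on 8. Over 91 bins of 10 Mb with at least 50 terminal regions, it ran from 0 to 32% with a median of 9.28%. The 9 bins at 20% or more held 221 of the 1511 regions, and the highest was 190 to 200 Mb of chromosome 3, with 33 of 103. There the share of distant regions in all lists was 11.9%, above the 4.83% of the whole. Other bins differed: at 20 to 30 Mb of chromosome 6 the terminal share was 25.3% and the distant share 2.59%. As a description, Spearman's rho between the terminal and distant shares was 0.453 over the 91 bins and 0.105 over 23 chromosomes.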

How the data were processed

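ChIP-seq for PR and POLR3A in T47D cells came as 4 deposited region lists. The submitters' processing notes name cutadapt, Bowtie2, MACS2 and hg38, with no role or version; which control was used, and how replicates were combined, is not given in the sources used here. Each list gives the authors' fold enrichment, a ratio, the authors' −log10 q-value and p-value, and the summit; the deposited score was not used. The lists hold no counts, so depth is unknown.

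Regions on chromosomes 1 to 22 and X were overlapped (at least 1 bp), and where a region overlapped several regions of a list, the one with the highest −log10 q was used. Of 59098 genes in the RefSeq table, 58419 were kept, leaving out those on alternate sequences; strand came from the promoter table (15812 of 19821 coding genes). Pol III genes were counted with 100 bp on each side. Shares have 95% Wilson intervals (statsmodels 0.14.6); other work used Python 3.11.15, numpy 2.4.6 and pandas 2.3.3. Bedtools 2.31.1 gave the same overlap counts for all 3 pairs of lists, and planted overlaps were found when tested on simulated data.

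Regions named in the text are the 10 highest in PR P4 and in POLR3A vehicle, up to 4 genes per gene list, up to 6 Pol III genes, up to 5 genes with most regions, those nearest the distance limit and the 3 lowest in PR vehicle; others are said to be picked later. The regions and gene lists were chosen with earlier results of these data known. Alternatives were a stricter −log10 q, a reciprocal overlap, other distances, the summit in place of the region, lists of equal length, rank by fold, and other sets of promoters.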

Additional observations from a re-analysis of the deposited data

How the results depend on the processing

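No paired analysis was possible because each group came as 1 list with no value per replicate, and for the same reason no replicate could be left out. Under a −log10 q of at least 5, at least 10, a reciprocal overlap of 50% and lists of equal length, the regions numbered 200, 20, 234 and 496 in place of 1511, and their genes 236, 23, 268 and 601 in place of 1668. Under the same 4 settings and then within 500 bp and within 5 kb, their share of the terminal PR P4 regions was 3.02%, 0.651%, 1.65%, 17.0%, 13.1% and 6.78% in place of 10.7%. The difference from distant regions was 5.84 percentage points, and it was -0.789, -2.77 and -0.376 under the 2 thresholds and the reciprocal overlap, and 7.46, 8.25 and 1.68 under the other 3. The share at gene starts, 87.2%, was 78.2%, 70.6% and 89.4%, 81.4% with lists of equal length, and 79.95% within 5 kb.

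The median distance between summits, 208 bp under vehicle and 179 bp under P4, was 167 and 156 bp at a −log10 q of at least 5, 122 and 133 bp at 10, and 94.5 and 100 bp with the reciprocal overlap. With lists of equal length the P4 distance was 199 bp. With the nearest POLR3A summit in place of the strongest, chosen after seeing the data, it was 182 and 156 bp. Ranked by fold, the median percentile was 67.4 in PR P4, 67.1 in POLR3A vehicle and 73.8 in POLR3A P4. Among overlapped promoters the ETS share was 28.1% and the TATA share 5.33%, against 23.1% and 6.72% of all promoters of these genes. In promoters with the PR P4 summit, also added after seeing the data, the shares were 30.5% for ETS, 14.0% for the PR hexamer, 3.29% for forkhead, 4.12% for GATA, 35.0% for CCAAT and 58.8% for the GC box. Requiring the PR P4 summit near the terminus left all 7 results within their intervals or within 1.5 times. The stricter settings keep fewer regions by construction, and other causes were not tested. The depth of the libraries is unknown, so how depth limits each list cannot be given.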
